A study of Mus musculus with 28 samples.

Results

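The 10 genes described here are Fos, Fosb, Fosl1, Jun, Junb, Egr1, Atf3, Nr4a1, Ier3 and Zfp36, which belong to the immediate-early response of cells. They were taken by symbol from the 19532 genes named on the array, and all 10 were measured in all 24 mice. Immediate-early genes are transcribed within minutes of a stimulus, through proteins that already lie in the cell, and no new protein has to be made first. Growth factors, cytokines, wounding and stress act through MAP kinases on SRF, its ternary complex partners and CREB at these genes, and NF-kB acts on some of them. Most of the products bind DNA: FOS and JUN proteins pair as the transcription factor AP-1, EGR1 is a zinc finger protein, NR4A1 an orphan nuclear receptor and ATF3 a stress-induced relative of AP-1. IER3 and ZFP36 bind no promoter. IER3 is a small protein that acts on cell survival, and ZFP36 (tristetraprolin) binds AU-rich elements of cytokine mRNAs and speeds their decay. In skin, AP-1 is known for its part in keratinocyte differentiation, wound repair and inflammation.

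Skin was taken 2 weeks after spleen cells had been transferred into balb/c-background recipients, a model of chronic graft-versus-host disease (cGVHD). The spleen cells came from allogeneic B10.D2 donors (allo mice in what follows) or from syngeneic balb/c donors (syn mice). All recipients carried rag2-/-, so they formed no T or B cells of their own, while other host cells remained. Some recipients lacked only Rag2, others lacked IL13 as well (Il13-deficient), and still others lacked IL4Ra, the receptor chain through which both IL-4 and IL-13 signal (Il4ra-deficient). The groups were 5 allo and 4 syn Rag2-/- mice, 4 allo and 4 syn Il13-deficient mice, and 4 allo and 3 syn Il4ra-deficient mice. Age and sex of the mice are not given in the labels used here. RNA of 24 mice was hybridised to 28 Agilent 2-colour arrays, skin in Cy3 and Universal Mouse Reference RNA in Cy5. All values are log2 of skin over reference, so 0 means equal signal of both and a difference of 1 is a ratio of 2. Base 2 was read from the values and is not stated in the labels. Each adjusted p comes from limma, over 14783 genes, and a gene was called under 0.05. The number of mice limits the precision, and nothing in the labels says whether mice of a group shared a cage or a transfer. Mouse numbers fall into 4 series by their first 2 digits, 45, 57, 61 and 62, which the labels do not explain. Rag2-/- mice were in series 57 and 61 and Il4ra-deficient mice in 45 and 57. All Il13-deficient mice were in 62, so Il13 genotype and number series cannot be told apart.

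Facts of the whole set bear on how the 10 genes read. Of the epidermal genes, 16 of 16 had a median above 0, a list that also served to settle the sign of the ratios, so it is a weak check of the tissue label. Arrays correlated with each other at 0.595 to 0.928, and arrays of 1 mouse at 0.904 to 0.924. The targeted genes checked the genotypes only in part. Il4ra lay between 0.39 and 0.85 in allo Il4ra-deficient mice, against 1.69 to 3.27 in allo Rag2-/- mice. With syn cells it lay between -0.32 and 0.07 in Il4ra-deficient mice, against 0.33 to 1.42 in Rag2-/- mice. Il13 spanned -0.425 to 0.388 in syn Il13-deficient mice and 0.06 to 0.37 in syn Rag2-/- mice, which overlap. In allo mice Il13 was -1.40 to -0.27 in the 3 Il13-deficient mice that had a value, against -0.36 to 0.86 in Rag2-/- mice. Rag2 stayed between -0.06 and 0.26 in every mouse with a value. Mice 5704 (allo, Rag2-/-) and 6224 (allo, Il13-deficient) stood apart from their groups in several of the genes below, and values without them are given there.

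Upstream sequence is shown for the 5 members that were higher under allo cells in Rag2-/- recipients, so that the known regulatory letters can be seen in place. Each run is the 250 bases before the annotated start, 5′ to 3′ on the gene's strand, from RefSeq's GRCm38.p6. The windows are chr12:85473640-85473889 (plus strand) for Fos, chr8:84978749-84978998 (minus) for Junb, chr1:191183334-191183583 (minus) for Atf3, chr17:35821463-35821712 (plus) for Ier3 and chr7:28379229-28379478 (minus) for Zfp36. Capitals mark matches to the motifs named after the runs.
Fos: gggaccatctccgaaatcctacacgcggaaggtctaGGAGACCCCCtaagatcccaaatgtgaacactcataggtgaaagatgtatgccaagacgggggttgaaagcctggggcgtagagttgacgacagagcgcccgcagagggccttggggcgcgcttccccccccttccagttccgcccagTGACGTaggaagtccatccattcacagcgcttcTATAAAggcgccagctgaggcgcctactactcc
Junb: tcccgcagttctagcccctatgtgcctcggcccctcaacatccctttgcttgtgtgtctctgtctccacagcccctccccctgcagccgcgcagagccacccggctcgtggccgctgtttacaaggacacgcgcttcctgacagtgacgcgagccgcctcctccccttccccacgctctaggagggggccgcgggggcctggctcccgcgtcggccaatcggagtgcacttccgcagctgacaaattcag
Atf3: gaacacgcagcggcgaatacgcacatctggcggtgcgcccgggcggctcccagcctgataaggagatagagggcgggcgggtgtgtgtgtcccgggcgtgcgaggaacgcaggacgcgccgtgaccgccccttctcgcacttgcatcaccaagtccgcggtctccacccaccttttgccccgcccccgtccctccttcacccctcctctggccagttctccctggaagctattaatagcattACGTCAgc
Ier3: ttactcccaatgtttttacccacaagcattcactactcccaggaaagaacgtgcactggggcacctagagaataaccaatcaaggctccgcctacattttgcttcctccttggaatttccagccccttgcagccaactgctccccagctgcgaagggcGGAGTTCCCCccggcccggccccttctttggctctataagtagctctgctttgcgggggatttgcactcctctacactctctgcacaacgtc
Zfp36: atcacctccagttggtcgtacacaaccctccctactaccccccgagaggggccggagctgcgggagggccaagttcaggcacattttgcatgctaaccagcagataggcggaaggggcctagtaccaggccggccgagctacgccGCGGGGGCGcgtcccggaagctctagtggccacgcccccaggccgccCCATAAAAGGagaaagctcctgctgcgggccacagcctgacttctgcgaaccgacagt
Of the 10 genes, 8 had a window, all but Egr1 and Fosl1. Motifs were searched on both strands, and shares are of 32851 upstream windows of the same length. The core TGACGT of the cyclic AMP response element, which CREB and ATF proteins bind, was in 6.469% of windows and in Fos (-66 to -61 from the start) and Atf3 (-8 to -3). Its full form TGACGTCA, which contains that core, was in 1.546% of windows, and the AP-1 site TGANTCA in 6.749%, and neither was in any of the 8. The EGR site GCGNGGGCG was in 4.697% of windows and in Zfp36 (-105 to -97), Fosb and Nr4a1. The CArG box, which SRF binds, was in 1.467% of windows and in Zfp36 (-58 to -49). An NF-kB site was in 3.899% of windows and in Fos (-214 to -205), Ier3 (-92 to -83) and Fosb. The STAT6 site, TTC and GAA with 4 bases between them, was in 5.854% of windows and in none of the 8. STAT6 is the factor that IL-4 and IL-13 activate through IL4Ra. The TATA box TATAAA was in 12.368% of windows and in Fos (-33 to -28). The windows of Junb and Jun held none of these letters. Sites farther upstream than these 250 bases, and spellings that differ from the ones searched, were not looked for. A missing match therefore does not mean that a gene lacks such a site. A match is a description of letters, not of binding.

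In Rag2-/- recipients, the comparison that shows the response to allogeneic cells with Il13 and Il4ra intact, 5 of the 10 genes were higher in allo mice and none was lower. Over all genes tested 12.6% were higher and 15.6% lower. The median difference of the 10 was 0.49, and that of all genes -0.08. Called higher were Fos, Junb, Atf3, Ier3 and Zfp36. In Il13-deficient recipients 1 gene was higher (Atf3) and 1 lower (Egr1), where 9.19% of all genes were higher and 7.11% lower, and the median of the 10 was 0.18. In Il4ra-deficient recipients 1 was higher (Junb) and 1 lower (Jun), where 5.91% of all genes were higher and 3.31% lower, and the median of the 10 was -0.12. Averaged over the 3 recipients, Atf3, Junb and Fos were higher and Jun and Nr4a1 lower, beside 16.5% and 22.3% of all genes. The Fos call of that average was lost in 3 of 37 alternatives, and Egr1, at -0.38 (adjusted p = 0.0514), was called lower in 12. Fosb and Fosl1 were called in none of these comparisons.

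**Figure D1:**
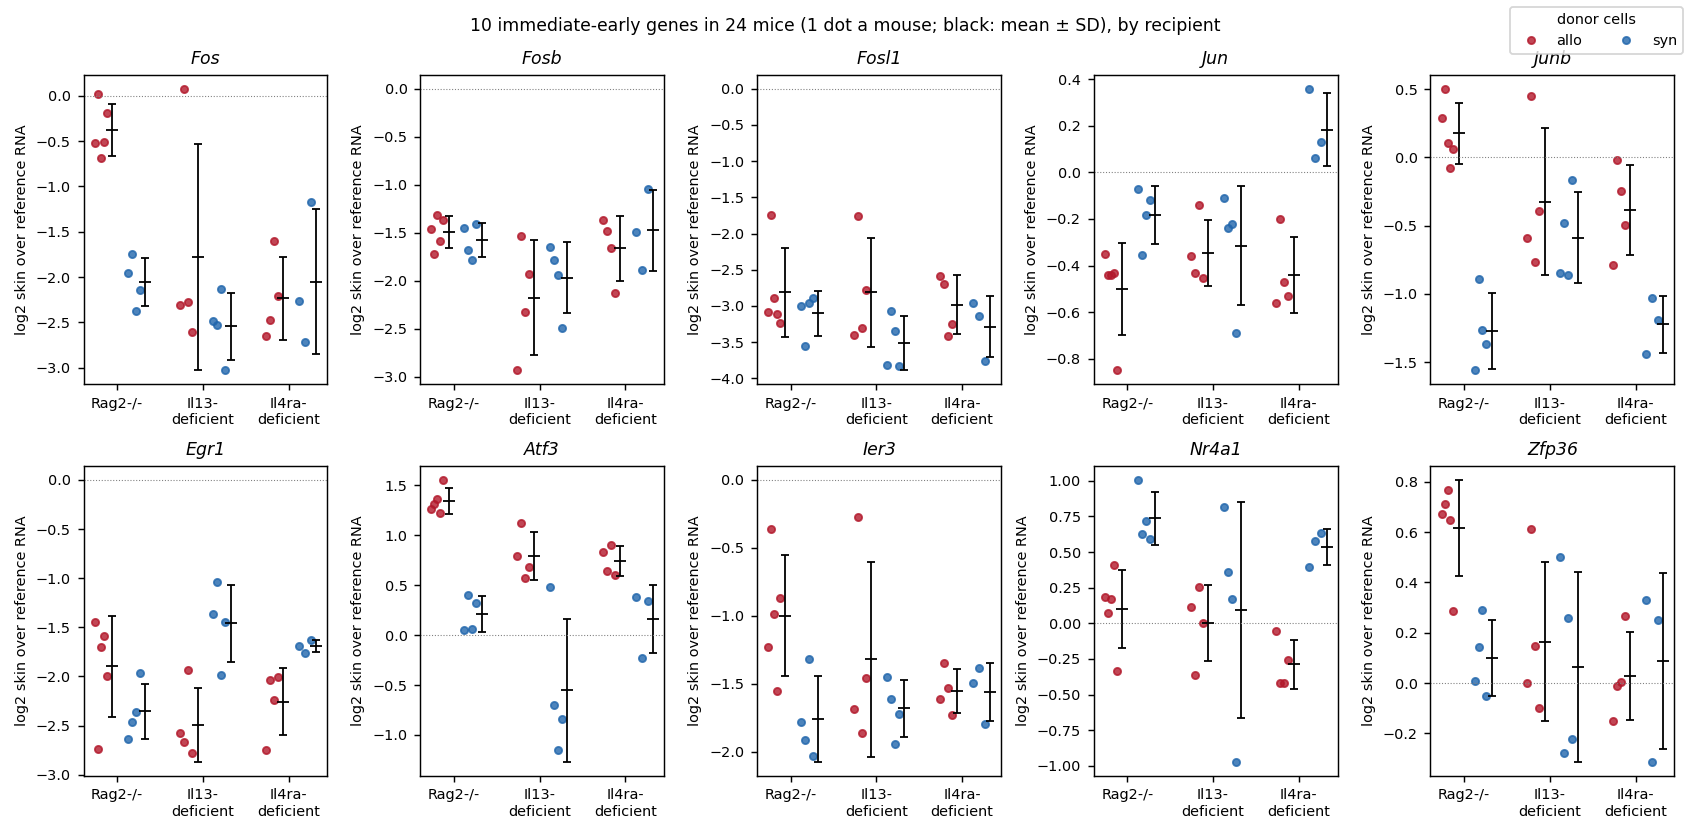
Log2 of skin over reference RNA (y axis) for each of the 10 genes, by recipient (x axis), with allo mice in red left of syn mice in blue; 1 dot is a mouse and the black bars are mean ± SD. In Rag2-/- mice the allo dots of Fos, Junb and Atf3 all lie above the syn dots, and in Il13-deficient mice 1 allo mouse (6224) stands at 0.08 for Fos while the other 3 lie between -2.61 and -2.28.

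**Figure D2:**
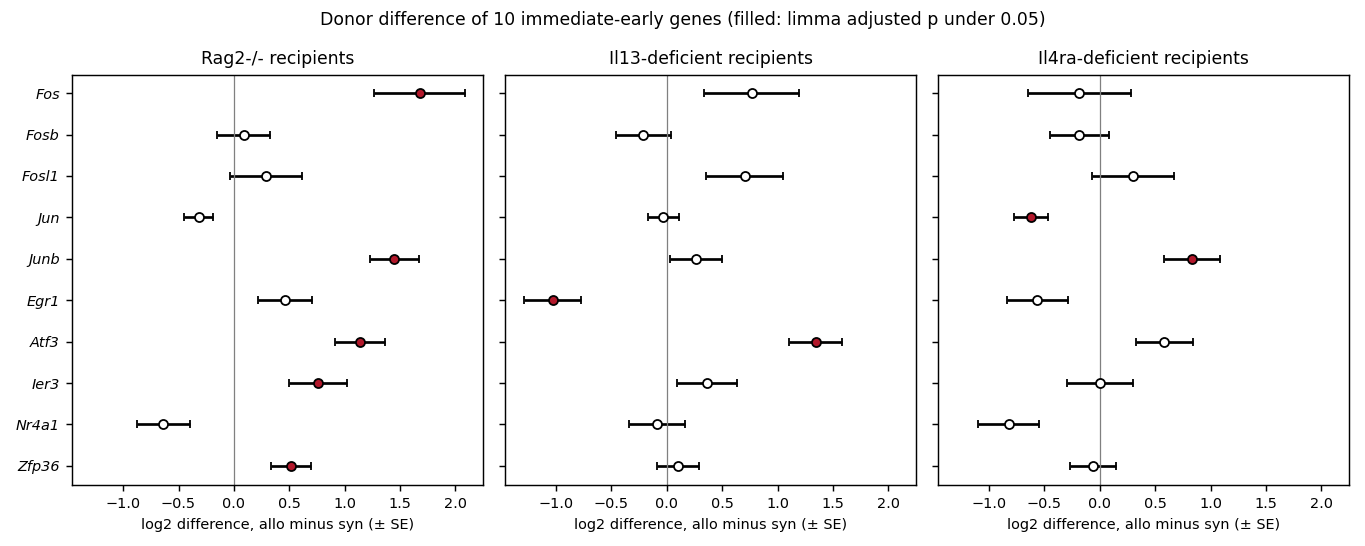
Difference allo minus syn (log2, x axis) with its standard error for the 10 genes (y axis) in each recipient; filled points passed an adjusted p of 0.05. Fos stands at 1.68 in Rag2-/-, 0.76 in Il13-deficient and -0.18 in Il4ra-deficient recipients.

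Fos, the founding FOS protein and the partner that gives AP-1 its transient activity, showed the widest donor difference of the 10 in Rag2-/- recipients. Its values were -0.52, 0.02, -0.69, -0.51 and -0.19 in allo Rag2-/- mice, against -1.96, -1.75, -2.37 and -2.14 in syn Rag2-/- mice. The groups did not overlap, with all allo mice higher. The difference was 1.68 (SE 0.41, adjusted p = 0.00439), a 3.20-fold higher ratio, and the call held in all 37 alternatives (adjusted p 8.62e-05 to 0.0161). It was 1.78 within number series 57 (2 allo and 3 syn mice) and 1.68 within series 61 (3 allo mice and 1 syn mouse). In Il13-deficient recipients Fos was -2.31, 0.08, -2.28 and -2.61 in allo mice, against -2.49, -2.53, -2.13 and -3.03 in syn mice. A single mouse, 6224, was high there, and the other allo mice lay among the syn values. The difference was 0.76 (SE 0.43, adjusted p = 0.252), and 0.145 without mouse 6224 (adjusted p = 0.821). In Il4ra-deficient recipients Fos was -2.65, -2.48, -1.60 and -2.21 in allo mice, against -2.26, -2.72 and -1.17 in syn mice. These groups overlapped, with a difference of -0.18 (SE 0.46, adjusted p = 0.850).

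Fos levels were then compared between recipients under the same donor, to see what the loss of IL4Ra or IL13 in the host went with. Allo Il4ra-deficient mice averaged -2.24 ± 0.46 (SD, n = 4) and allo Rag2-/- mice -0.38 ± 0.29 (SD, n = 5), with no overlap. The difference of -1.86 (SE 0.41, adjusted p = 0.0364) made Fos 3.62-fold lower in Il4ra-deficient mice. Fos was the only one of the 10 genes called in that comparison, in which 0.805% of all genes were called. Within series 57, with 2 mice on each side, the difference was -1.66. The call was lost in 12 of 37 alternatives (adjusted p 0.000929 to 0.265), among them leaving out any 1 of 8 mice (4533, 4534, 5718 and 5720 of the allo Il4ra-deficient group, 5701, 5704, 6151 and 6154 of the allo Rag2-/- group), and each time the direction stayed. With the number series as a block it was also lost (log2 -1.70, adjusted p = 0.258), and 3 of all genes were called there, against 119 without the block. Allo Il13-deficient mice averaged -1.78 ± 1.25 (SD, n = 4), a difference of -1.40 from allo Rag2-/- mice (SE 0.41, adjusted p = 0.408). Without mouse 6224 that difference was -2.02 (adjusted p = 0.00260). In syn skin, Fos was -2.05 ± 0.80 (SD, n = 3) in Il4ra-deficient and -2.05 ± 0.26 (SD, n = 4) in Rag2-/- mice, a difference of 0.00. The donor effect itself was smaller by 1.86 in Il4ra-deficient than in Rag2-/- recipients when tested as an interaction (log2 -1.86, SE 0.62), and this did not pass (adjusted p = 0.836, unadjusted p = 0.00668). These comparisons share the allo Rag2-/- mice. A second Fos probe gave values near 0 in 16 mice only (0.37 in allo and -0.24 in syn Rag2-/- mice) and was not used. The donor difference on it was 0.60, of the same sign.

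Fosb, which forms AP-1 like Fos and is best known from neurons, did not follow Fos. It was -1.73 to -1.32 (median -1.46) in allo Rag2-/- mice and -1.78 to -1.41 (median -1.56) in syn Rag2-/- mice. The difference was 0.09 (SE 0.24, adjusted p = 0.820). The lowest Fosb value of all mice, -2.93, was in an allo Il13-deficient mouse, and that group averaged -2.18 ± 0.60 (SD, n = 4) against -1.49 ± 0.17 (SD, n = 5) in allo Rag2-/- mice (difference -0.69, SE 0.24, adjusted p = 0.599). Fosl1, or FRA-1, lacks the strong activation domain of FOS and is induced later in many cells. Its values were -3.09, -1.74, -2.89, -3.11 and -3.24 in allo Rag2-/- mice, against -3.003, -3.56, -2.96 and -2.89 in syn Rag2-/- mice. Only mouse 5704 lay above the syn range. In Il13-deficient recipients Fosl1 was -3.41, -1.76, -3.31 and -2.78 in allo mice, against -3.81, -3.07, -3.35 and -3.83 in syn mice, and mouse 6224 was again the high one. The donor differences of Fosl1 were 0.29 (adjusted p = 0.552), 0.70 (adjusted p = 0.183) and 0.30 (adjusted p = 0.671) in Rag2-/-, Il13-deficient and Il4ra-deficient recipients. Without mouse 5704 the first was 0.0217, and without mouse 6224 the second was 0.351.

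Junb, a JUN protein that opposes JUN in several settings and is expressed in T cells, myeloid cells and epidermis, was higher under allo cells in 2 of the 3 recipients. Junb was 0.29, 0.50, 0.10, -0.08 and 0.06 in allo Rag2-/- mice, against -1.56, -0.89, -1.27 and -1.37 in syn Rag2-/- mice. The groups lay apart, with a difference of 1.45 (SE 0.22, adjusted p = 5.97e-05), a 2.73-fold higher ratio, called in all 37 alternatives. In Il4ra-deficient recipients Junb was -0.79, -0.02, -0.25 and -0.49 in allo mice, against -1.44, -1.03 and -1.19 in syn mice. These groups did not overlap either. The difference was 0.83 (SE 0.25, adjusted p = 0.0424), and the call was lost in 14 of 37 alternatives (adjusted p 0.0111 to 0.141), among them leaving out any 1 of 8 mice (4534, 4535, 5717, 5718, 5719, 5720, 5701 and 6151). Without mouse 4535 no member stayed called in that comparison. In Il13-deficient recipients Junb was -0.59, 0.45, -0.77 and -0.39 in allo mice, against -0.84, -0.48, -0.86 and -0.16 in syn mice. They overlapped, and the difference was 0.26 (SE 0.23, adjusted p = 0.503), or 0.0047 without mouse 6224. Syn Il13-deficient mice averaged -0.59 ± 0.33 (SD, n = 4) and syn Rag2-/- mice -1.27 ± 0.28 (SD, n = 4), a difference of 0.68 that did not pass (SE 0.23, adjusted p = 0.112). The donor effect on Junb was lower by 1.19 in Il13-deficient than in Rag2-/- recipients (log2 -1.19, SE 0.32, adjusted p = 0.134). Without mouse 6224 this interaction was -1.44 (adjusted p = 0.0190). The 2 Junb probes gave donor differences of 1.42 and 1.48 in Rag2-/- recipients.

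Jun, the main partner of FOS in AP-1, ran the other way. Its values were -0.35, -0.44, -0.44, -0.43 and -0.85 in allo Rag2-/- mice, against -0.07, -0.36, -0.19 and -0.12 in syn Rag2-/- mice. The groups overlapped at a single mouse on each side and the difference of -0.32 was not called (SE 0.13, adjusted p = 0.0780). In Il4ra-deficient recipients Jun was -0.56, -0.20, -0.47 and -0.53 in allo mice, against 0.36, 0.06 and 0.13 in syn mice. All allo mice lay below all syn mice. Jun was lower there by 0.62 (log2 -0.62, SE 0.15, adjusted p = 0.0127), a call lost without mouse 4535 and without the 4 mice of irregular labels. In Il13-deficient recipients the mice overlapped (difference -0.03, SE 0.14, adjusted p = 0.917). Averaged over recipients Jun fell by 0.32 (SE 0.08, adjusted p = 0.00347) and stayed called in all 37 alternatives. A second pattern in Jun lay in the syn groups. Syn Il4ra-deficient mice, at 0.18 ± 0.16 (SD, n = 3), were all above syn Rag2-/- mice, at -0.18 ± 0.13 (SD, n = 4), with a difference of 0.37 that did not pass (SE 0.15, unadjusted p = 0.0248, adjusted p = 1).

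Atf3, a repressor of the ATF family that stress and Toll-like receptor signals induce in macrophages and keratinocytes, was higher in allo skin of every recipient by value. It was 1.27, 1.31, 1.37, 1.23 and 1.55 in allo Rag2-/- mice, against 0.05, 0.40, 0.06 and 0.32 in syn Rag2-/- mice. Its values were 0.79, 1.13, 0.57 and 0.68 in allo Il13-deficient mice, against 0.48, -0.70, -1.15 and -0.84 in syn Il13-deficient mice. It measured 0.84, 0.64, 0.91 and 0.60 in allo Il4ra-deficient mice, against 0.38, -0.23 and 0.34 in syn Il4ra-deficient mice. No allo group overlapped its syn group. The differences were 1.14 (SE 0.23, adjusted p = 0.000887), 1.34 (SE 0.24, adjusted p = 0.000345) and 0.58 (SE 0.26, adjusted p = 0.164) in Rag2-/-, Il13-deficient and Il4ra-deficient recipients, so the last was not called. As folds the called ones were 2.20 and 2.54. The second call was lost in 1 of 37 alternatives, the fit of these groups alone (adjusted p = 0.0588), and the first in none. Allo Rag2-/- mice were all above the allo mice of both other recipients, with differences of -0.60 for Il4ra-deficient (adjusted p = 0.265) and -0.55 for Il13-deficient mice (adjusted p = 0.776), neither called. Syn Il13-deficient mice averaged -0.55 ± 0.71 (SD, n = 4) and syn Rag2-/- mice 0.21 ± 0.18 (SD, n = 4). That difference of -0.76 did not pass (SE 0.24, adjusted p = 0.0956), and passed without mouse 6225, which alone of the 4 stood at 0.48 (adjusted p = 0.000700).

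Egr1, a zinc finger factor of growth and wound responses that SRF drives, turned between recipients. Egr1 was -1.45, -2.74, -1.70, -1.59 and -1.995 in allo Rag2-/- mice, against -2.63, -2.46, -2.36 and -1.97 in syn Rag2-/- mice. Of the allo mice, 3 lay above all syn mice, 6154 fell just below the highest syn mouse, and 5704 was the lowest of both groups. The difference was 0.46 (SE 0.24, adjusted p = 0.170), and 0.672 without mouse 5704 (adjusted p = 0.0321). In Il13-deficient recipients Egr1 was -2.58, -2.67, -1.94 and -2.78 in allo mice, against -1.36, -1.04, -1.98 and -1.45 in syn mice. Egr1 was lower there by 1.03 (log2 -1.03, SE 0.26, adjusted p = 0.00768), 2.04-fold. In Il4ra-deficient recipients it was -2.75, -2.03, -2.24 and -2.004 in allo mice, against -1.69, -1.76 and -1.63 in syn mice. The difference there, -0.56, did not pass although no mice overlapped (SE 0.28, adjusted p = 0.215). The donor effect differed by -1.49 between Il13-deficient and Rag2-/- recipients (SE 0.36, adjusted p = 0.107, unadjusted p = 0.000404), and passed in 3 of 37 alternatives, without mouse 6225, without mouse 6230 and without mice 5704 and 6224 (log2 -1.64, adjusted p = 0.0310 in the last). Genes of the growing hair follicle were read beside Egr1. Over 4 follicle genes measured in all mice, the mean level was -0.44 to 0.67 in allo Il13-deficient mice, against 2.53 to 5.37 in syn Il13-deficient mice. In that comparison 0 of 11 tested follicle genes were higher and 10 lower, with a median of -3.89. Without syn mice 6229 and 6234, whose follicle levels were the highest of all (4.80 and 5.37), the Egr1 difference was -0.816, with fewer mice, and was no longer called (adjusted p = 0.104). The call was also lost when these groups alone were fitted. Syn Il13-deficient mice also differed from syn Rag2-/- mice, by 0.90 for Egr1 (SE 0.26, adjusted p = 0.0851), not called. The follicle median was 3.89 there, with 1 of 11 genes called higher, beside 0.284% of all genes called. In Rag2-/- recipients both donor differences were above 0, a follicle median of 1.33 and 0.46 for Egr1, the latter not called. In Il4ra-deficient recipients the donor differences had opposite signs, a follicle median of 0.20 and -0.56 for Egr1. The part of the follicle genes in the Egr1 values was not tested.

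Nr4a1, or Nur77, is induced by T cell receptor signals in T cells and by inflammatory signals in macrophages, and is also expressed in muscle. Its values were 0.18, 0.07, 0.17, 0.41 and -0.34 in allo Rag2-/- mice, against 1.01, 0.63, 0.72 and 0.60 in syn Rag2-/- mice. All allo mice lay below all syn mice, with a difference of -0.64 just outside the threshold (SE 0.24, adjusted p = 0.0519). Nr4a1 was called lower there in 8 of 37 alternatives (adjusted p 0.00563 to 0.149), 4 of them the loss of 1 mouse (6152, 6224, 6225 or 6234). In Il4ra-deficient recipients Nr4a1 was -0.06, -0.42, -0.42 and -0.26 in allo mice, against 0.40, 0.58 and 0.64 in syn mice, again without overlap (difference -0.82, SE 0.27, adjusted p = 0.0627), and called lower in 6 of 37 alternatives. In Il13-deficient recipients the 4 syn mice spread over -0.97 to 0.82 and covered the allo mice, at -0.36 to 0.26. Averaged over recipients Nr4a1 fell by 0.52 (SE 0.15, adjusted p = 0.00844), in all 37 alternatives too. Skeletal muscle genes, which also differ with the donor in Rag2-/- recipients (0 of 14 higher and 7 lower, median -0.78), had mean levels of 5.06 to 5.61 in allo and 5.65 to 6.22 in syn Rag2-/- mice. In Il4ra-deficient recipients, where Nr4a1 differed by -0.82, 0 of the 14 muscle genes were called and their median was -0.25. Their part in the Nr4a1 values was not tested.

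Ier3, which acts on survival and on ERK signalling, was higher under allo cells in Rag2-/- recipients. It was -1.23, -0.36, -0.99, -1.55 and -0.87 in allo Rag2-/- mice, against -1.78, -1.92, -1.31 and -2.03 in syn Rag2-/- mice. The groups overlapped, and the difference was 0.76 (SE 0.26, adjusted p = 0.0335). The call was lost in 10 of 37 alternatives (adjusted p 0.00564 to 0.100), among them leaving out any 1 of mice 5700, 5702, 5704, 6151, 6153 and 6154. In Il13-deficient recipients Ier3 was -1.68, -0.27, -1.86 and -1.46 in allo mice and -1.94 to -1.45 in syn mice (difference 0.36, adjusted p = 0.416), or 0.0138 without mouse 6224. In Il4ra-deficient recipients the difference was 0.00 (SE 0.30, adjusted p = 0.997). Zfp36, the decay factor of AU-rich mRNAs, was 0.67, 0.71, 0.77, 0.65 and 0.29 in allo Rag2-/- mice, against 0.01, 0.14, 0.29 and -0.05 in syn Rag2-/- mice. Of the allo mice only 6154 fell among the syn mice. The difference of 0.52 was called (SE 0.18, adjusted p = 0.0354), and the call was lost in 7 of 37 alternatives (adjusted p 0.00545 to 0.0940), 6 of them the loss of 1 mouse (5700, 5701, 5704, 6151, 6152 or 6153). Its 2 probes gave 0.67 and 0.37. In the other recipients Zfp36 differed by 0.10 (Il13-deficient, adjusted p = 0.778) and -0.06 (Il4ra-deficient, adjusted p = 0.891). Allo Il4ra-deficient mice, at 0.03 ± 0.17 (SD, n = 4), were all below allo Rag2-/- mice, at 0.62 ± 0.19 (SD, n = 5), and the difference of -0.59 did not pass (SE 0.18, adjusted p = 0.140).

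Between recipients under the same donor, few genes passed anywhere. In allo mice, Il13-deficient against Rag2-/- recipients gave 0 calls over all genes (0%), with 850 genes and 6 of the 10 at an unadjusted p under 0.05, and the median difference of the 10 was -0.48. Il4ra-deficient against Rag2-/- recipients gave the single call of Fos described above, 1774 genes and 5 of the 10 at an unadjusted p under 0.05, and a median of -0.47, where the median of all genes was 0.01. In syn mice, Il13-deficient against Rag2-/- recipients had 0.284% of all genes called and none of the 10, with 3006 genes and 4 of the 10 at an unadjusted p under 0.05. Il4ra-deficient against Rag2-/- recipients gave 0 calls over all genes, with 430 genes and 2 of the 10 at an unadjusted p under 0.05. The interactions of donor and recipient had 0.0135% of genes called for Il13, none of the 10 (2373 genes and 2 of the 10 at an unadjusted p under 0.05), and 0 for Il4ra, where 730 genes and 3 of the 10 had an unadjusted p under 0.05. When the 6 groups were ordered by mean, neighbouring groups lay apart without overlap for Atf3, Junb and Jun. For Atf3 these were allo Rag2-/- above allo Il13-deficient and allo Il4ra-deficient above syn Rag2-/- mice. For Junb it was syn Il13-deficient above syn Il4ra-deficient, and for Jun syn Il4ra-deficient above syn Rag2-/- mice. Such steps were not counted over all genes, so how common they are is not known. Allo Rag2-/- mice had the highest mean of the 6 groups for Fos, Junb, Atf3, Ier3 and Zfp36, and the lowest for Jun.

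A pair of mice from different groups shared a pattern. Mice 5704 (allo, Rag2-/-) and 6224 (allo, Il13-deficient) held the 2 highest values of all 24 mice for Fos (0.02 and 0.08), Junb (0.50 and 0.45), Ier3 (-0.36 and -0.27) and Fosl1 (-1.74 and -1.76). The other 22 mice reached at most -0.19 for Fos, 0.29 for Junb, -0.87 for Ier3 and -2.59 for Fosl1. Egr1 did not share this, at -2.74 and -2.67 in the same mice. Other genes were looked up in these mice after their values had been seen. Il6 stood at 2.16 and 1.93 against at most 0.26 in the others, the neutrophil attractant Cxcl1 at -1.02 and -0.96 against at most -2.59, and Hif1a, the oxygen-regulated transcription factor subunit, at 1.76 and 1.85 against at most 1.04. S100a8, an alarmin of neutrophils and stressed keratinocytes, was 5.21 and 5.58, against at most 2.12 in the others, and was the 1 gene of the neutrophil list measured in all mice. The EGF receptor ligand Hbegf was 0.20 and 0.76, where the others reached -1.26. Heat shock genes averaged 1.34 in mouse 5704, the highest of all mice, and 1.08 in mouse 6224, below syn Il13-deficient mouse 6234 at 1.23. Without both mice, 6 of the 10 genes were called higher in allo Rag2-/- mice, beside 1642 higher and 2000 lower of 14606 genes tested. They were Fos (1.58, adjusted p = 0.000376), Junb, Atf3, Ier3 (0.600, adjusted p = 0.0165), Zfp36 and Egr1 (0.672, adjusted p = 0.0303). What set these mice apart was not tested.

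**Figure D3:**
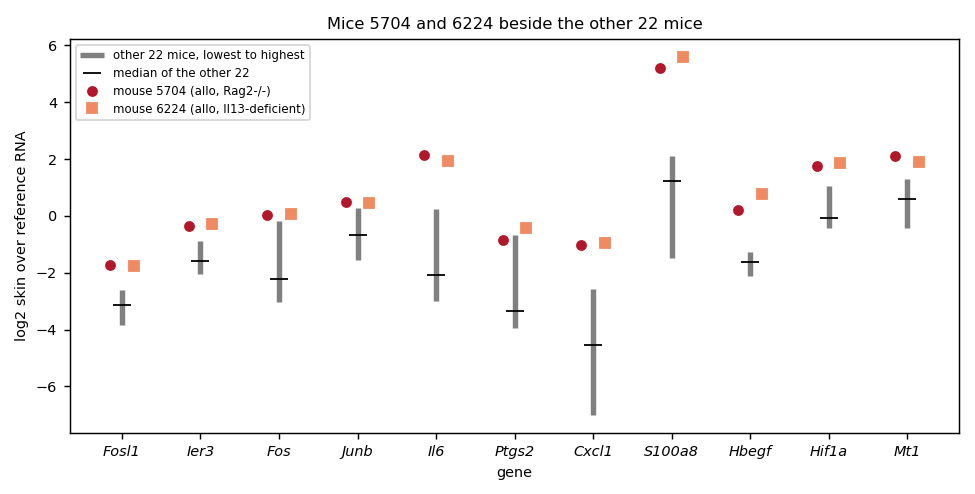
Log2 of skin over reference RNA (y axis) of 11 genes (x axis) in mice 5704 (circles) and 6224 (squares), beside the range of the other 22 mice (grey bars) and their median (black dash). Both mice lie above all others for 10 of the genes. For Ptgs2, mouse 5704 at -0.83 lies inside the range. The genes were chosen after their values in these mice were seen, so the count is a description and no test.

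After each group's mean was subtracted, the 10 genes moved together only in part from mouse to mouse. Over the 45 pairs of genes and 24 mice, Pearson's r ran from -0.59 to 0.72 with a median of 0.21, and 31 pairs were above 0. These are descriptions: genes on 1 array share its dye balance and RNA quality. The highest r were 0.72 between Fosl1 and Ier3, 0.65 between Jun and Nr4a1 and 0.64 between Junb and Ier3. Without mice 5704 and 6224 these were 0.26, 0.65 and 0.23, and the median over the pairs was 0.12. The 10 pairs among Fos, Fosl1, Junb, Ier3 and Zfp36 were all above 0 with these mice, and 7 of them below 0 without (Fos with Fosl1 at -0.57, Fos with Ier3 at -0.37). The lowest was -0.59 between Junb and Nr4a1, or -0.58 without those mice. Beyond the 10, among 11842 other genes in all 24 mice, the nearest to Fos were Mt1, a metallothionein (r 0.85), Cdk5r1 (0.82), Mdm4 (0.79), Klhl6 (0.78) and Cox5a (0.78). Without mice 5704 and 6224 these were 0.69, 0.76, 0.42, 0.55 and 0.51. Nearest to Junb were Rbms1 (0.90), the GTPase Cdc42 (0.86), the hyaluronan receptor Cd44 (0.85), Id2 (0.85) and Ugcg (0.85), at 0.79 to 0.82 without both mice. For Atf3 they were the complement gene C1qb (0.82), Ocel1 (0.80), Pdlim1 (0.79), the lysyl oxidase family gene Loxl1 (0.77) and Sult4a1 (0.76), and for Egr1 the homeobox gene Hoxd8, Rasl11b, Brd7, Rala and Ppic (0.73 to 0.76, and 0.63 to 0.67 without both mice). Those of Atf3 were 0.77 to 0.81 without both mice. Zfp36 was nearest to Dusp1, the MAP kinase phosphatase and itself an immediate-early gene (0.86, and 0.83 without both mice), a pair picked after its values were seen.

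**Figure D4:**
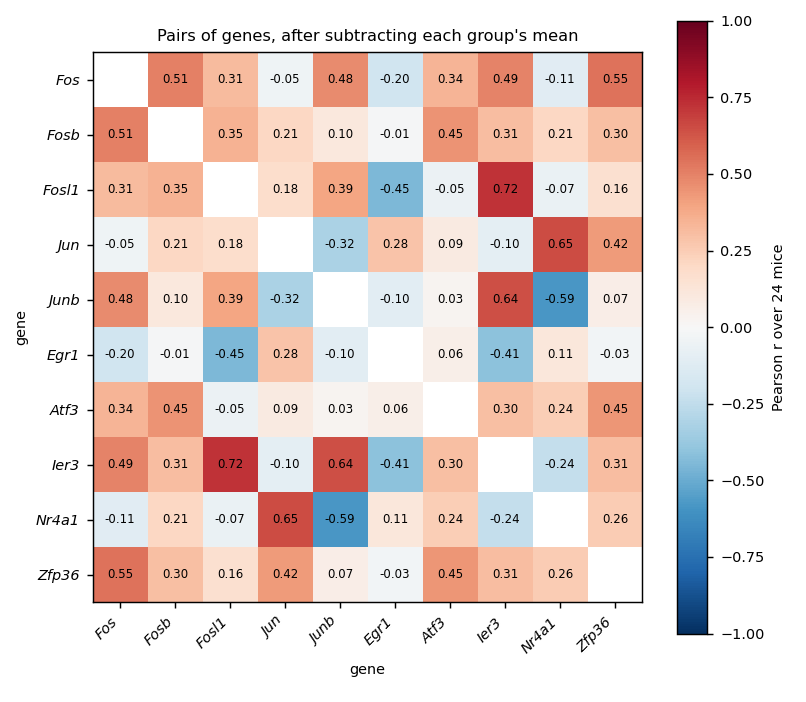
Pearson's r over 24 mice for each pair of the 10 genes, after subtracting each group's mean (red above 0, blue below). The 10 pairs among Fos, Fosl1, Junb, Ier3 and Zfp36 are red, but 7 of them lie below 0 without mice 5704 and 6224, and Nr4a1 with Junb is the bluest cell at -0.59.

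The wider pathway was read from 7 lists of other genes, some of which sit on more than 1 list. Each count below stands beside the shares over all genes, 12.6% higher and 15.6% lower in Rag2-/-, 9.19% and 7.11% in Il13-deficient and 5.91% and 3.31% in Il4ra-deficient recipients. The rest of the AP-1 and ATF family had 19 tested genes, of which 6 were higher and 0 lower in allo Rag2-/- mice, 4 and 0 in Il13-deficient and 3 and 0 in Il4ra-deficient recipients. Batf2, Batf and Batf3, the leucine zipper partners of JUN proteins in T cells and dendritic cells, led it. Their donor differences were 3.54, 3.11 and 1.87 in Rag2-/- recipients, 4.08, 3.23 and 2.37 in Il13-deficient, and 3.36, 2.06 and 1.68 in Il4ra-deficient recipients, all called. These 3 genes were called in the recipients where Fos was not. Jdp2, a repressor that dimerises with JUN, was higher by 0.68 in Rag2-/- and 1.18 in Il13-deficient recipients. Fosl2 differed by -0.45 (adjusted p = 0.0692) and Jund by -0.05 (adjusted p = 0.859) in Rag2-/- recipients. The list's median was 0.22, 0.14 and 0.02 in the 3 recipients, against medians of -0.08, -0.05 and -0.05 over all genes.

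Among 18 other immediate-early transcription factors, 8 were higher and 1 lower in Rag2-/-, 6 and 2 in Il13-deficient and 4 and 1 in Il4ra-deficient recipients. Irf1, a transcription factor that interferon gamma induces, was higher by 3.50, 4.07 and 3.35, and Bcl3, a partner of NF-kB, by 2.47, 1.84 and 2.04, in that order of recipients. Tsc22d1 fell by 1.25, 0.45 and 0.70. Klf10 was 0.40 (adjusted p = 0.0833), 0.74 and 0.62, called in the last 2. Bhlhe40 was 0.94, 0.32 (adjusted p = 0.388) and 0.89. Egr2, a close relative of Egr1, was called in none (-0.08, -0.51 and 0.14). Of 28 immediate-early genes that code for no transcription factor, 11 were higher and 1 lower in Rag2-/- recipients, 4 and 4 in Il13-deficient and 1 and 0 in Il4ra-deficient recipients. Ptgs2, the inducible cyclooxygenase, was higher by 1.95 in Rag2-/- recipients (adjusted p = 0.00302), and differed by 1.13 (adjusted p = 0.118) and 0.35 (adjusted p = 0.728) in the others. Tnfaip3, an inhibitor of NF-kB signalling, differed by 1.37, 1.33 and 0.55, the last not called. Id2 ran at 1.52, 1.05 and 0.50, the last not called, and Pim1 at 1.58, 0.73 and 0.88, the second not called.

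Of 20 kinases and SRF partners that act before the immediate-early genes, 2 were higher and 3 lower in Rag2-/-, 2 and 1 in Il13-deficient and 1 and 0 in Il4ra-deficient recipients. These counts are near the shares over all genes. Srf fell by 0.74 in Rag2-/- recipients (adjusted p = 0.00371), Map2k6 by 1.12, and Mapkapk2, the kinase that phosphorylates ZFP36, was higher by 0.66, 0.54 and 0.62 in the 3 recipients. Of 22 feedback inhibitors, 5 were higher and 2 lower in Rag2-/-, 1 and 2 in Il13-deficient and 1 and 1 in Il4ra-deficient recipients, the last 2 pairs of counts near the shares over all genes. Nfkbie was higher in all 3 (1.89, 2.04 and 1.28). Dusp2, a nuclear phosphatase of ERK in lymphocytes and myeloid cells, was higher by 2.35 in Rag2-/- recipients, and differed by -0.31 and 1.41 in the others without a call. Dusp6, the cytoplasmic ERK phosphatase, was higher by 1.15 in Rag2-/- recipients and stood at -0.08 and 0.42 in the others, not called. Averaged over the 3 recipients, 3 of the 22 feedback inhibitors were higher and 4 lower, beside 16.5% and 22.3% of all genes. Spry1, Dusp14 and Dusp16 were among those lower in that average.

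Downstream of the members lie the mRNAs that ZFP36 or its like regulate and the textbook targets of AP-1 and EGR1. Of 13 tested mRNAs with AU-rich elements, 9 were higher in Rag2-/-, 6 in Il13-deficient and 6 in Il4ra-deficient recipients, and none lower. Il1b was higher by 4.70, 2.63 and 2.48 in that order, Ifng by 3.97, 3.92 and 3.68, Ccl2 by 3.89, 3.42 and 2.83, and Tnf by 1.27, 1.90 and 1.54. Cxcl1 was higher by 2.18 and 2.46 in Rag2-/- and Il13-deficient recipients and differed by 0.49 in Il4ra-deficient ones (adjusted p = 0.734). Il10 and Vegfa were called in none of the 3. Most of these mRNAs code for cytokines of T cells and macrophages. Of 22 AP-1 and EGR1 targets, 11 were higher and 1 lower in Rag2-/-, 11 and 0 in Il13-deficient and 7 and 0 in Il4ra-deficient recipients. Plaur, the urokinase receptor, was higher by 3.38, 2.42 and 1.93, the protease inhibitor Timp1 by 2.92, 2.22 and 1.93, the adhesion molecule Icam1 by 2.40, 2.02 and 1.45, and Cd44 by 1.70, 1.07 and 1.65. The collagenase Mmp13 was called in Rag2-/- recipients (2.40) and stood at 0.35 and 2.23 in the others. Lor, or loricrin, was the 1 gene lower (-0.93 in Rag2-/- recipients), and it also sits on the epidermal list. The median of the targets was 0.77, 0.86 and 0.48 in the 3 recipients, against medians of -0.08, -0.05 and -0.05 over all genes. AP-1 activity itself was not measured.

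**Figure D5:**
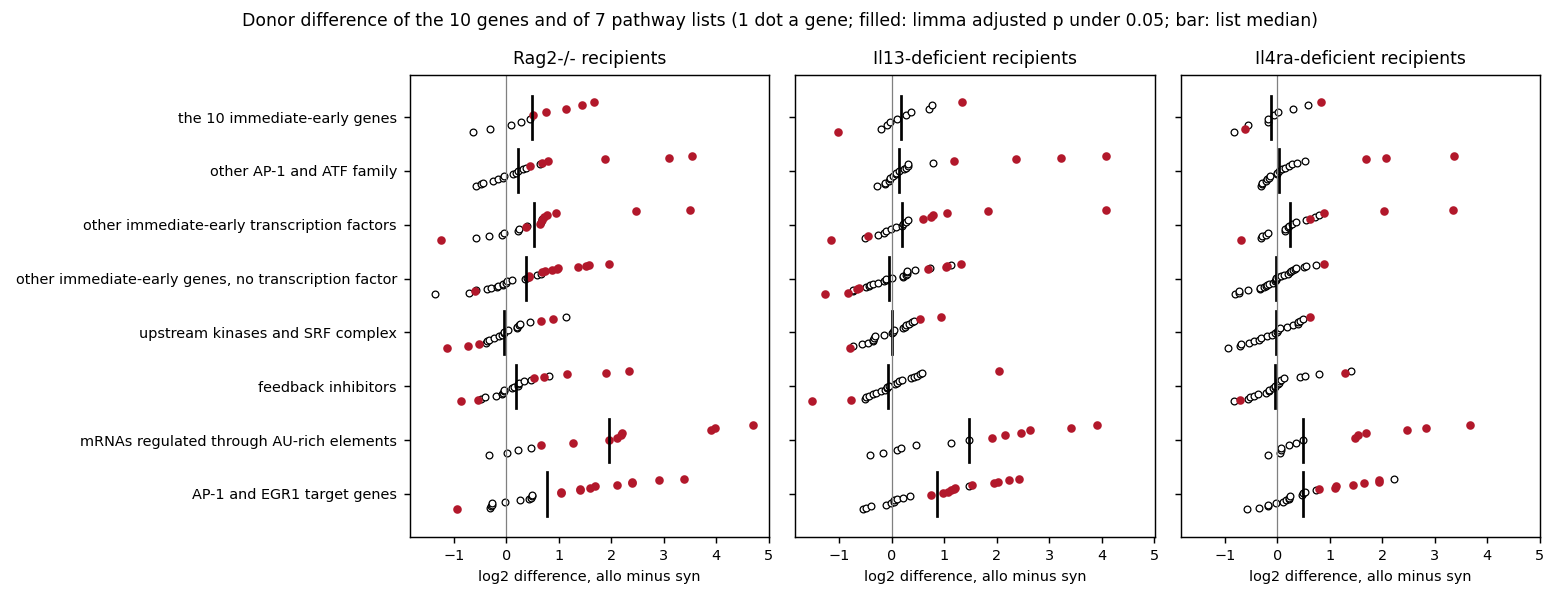
Difference allo minus syn (log2, x axis) for every gene of the 10 and of 7 pathway lists (y axis) in each recipient; filled dots passed an adjusted p of 0.05 and the bar is the list's median. The AU-rich list has its median at 1.95 in Rag2-/-, 1.47 in Il13-deficient and 0.49 in Il4ra-deficient recipients, and the kinase list lies around 0.

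Other cell types and handling were read from marker lists beside these results. In bulk skin, fewer cells of a type and less RNA per cell cannot be told apart. T cell genes were higher in allo mice in 7 of 7, 6 of 7 and 5 of 7 tested genes in Rag2-/-, Il13-deficient and Il4ra-deficient recipients. Their mean level over 5 genes was 1.54 to 2.35 in allo Rag2-/-, 0.65 to 1.69 in allo Il13-deficient and 0.59 to 0.95 in allo Il4ra-deficient mice. In syn mice it was -0.99 to -0.51, -1.40 to -0.99 and -1.09 to -0.64 in the same recipients. Macrophage and monocyte genes were higher in 10, 10 and 7 of 10. In Rag2-/- recipients 9 of 14 epidermal genes were lower and none higher, and in the other recipients 0 of 14 were called. The donor difference was called in Rag2-/- recipients only for Fos, in Rag2-/- and Il4ra-deficient for Junb and in Rag2-/- and Il13-deficient recipients for Atf3. The interactions of donor and recipient passed for none of these 3. In allo Il4ra-deficient against allo Rag2-/- mice, 2 of 7 T cell genes and 1 of 10 macrophage genes were lower, beside 0.805% of all genes called. The medians of these lists were -1.13 and -0.46. The part of these cell types in the values of the members was not tested. Heat shock genes, which rise with stress in handling, had a mean level of 0.79 to 1.34 in allo and 0.74 to 0.93 in syn Rag2-/- mice. Of these 11 genes, 2 were higher and 1 lower in Rag2-/-, 0 and 1 in Il13-deficient and 0 and 0 in Il4ra-deficient recipients.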

How the data were processed

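Per the labels' protocols, Trizol-extracted skin RNA was column-cleaned and put through low-input amplification. The authors deposited log2 ratios of both channels of each array. Not given in the sources used here are scanner software, background correction, normalization and filters. Base 2 of the logarithm was read from the values: for ratios of 2, 1.5 and 1.33, the spacings expected under log2 occurred 60, 54 and 47 times among 5320 pairs of frequent values, those under log10 33, 53 and 37 times and those under the natural log 10, 31 and 29 times, against a median of 18 per spacing and a highest of 67. Signs were turned to skin over reference, a direction taken from the labelled dyes and from 2 lists of genes. After turning, 16 of 16 epidermal genes lay above 0 (median 5.47), and 2 of 16 genes of dividing and embryonic cells did (median -1.93). An exact 0, between 2.42% and 36.8% of probes on an array, was taken as not measured. Intensities of single spots were not analysed, and dim probes carry no bound.

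Of 41174 probes, 32664 had 1 gene, 45 several and 8465 none. For each gene, the probes measured in most mice, and missing in the same ones, were averaged. Arrays of 1 mouse were averaged (mouse 5702 had 3, mice 5703 and 6232 had 2 each). The labels of mice 4533, 5718, 6230 and 6232 write the recipient allele irregularly, and that of 5718 names IL14Ra, which was read as IL4Ra. Genes with at least 2 mice in every group (14783 of 19532) were fitted over 6 groups in limma 3.58.1 (R 4.3.3), with lmFit and eBayes and Benjamini-Hochberg adjustment, two-sided. The fit was tested on simulated data.

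The 10 genes, the lists and the tests were chosen with earlier results of these data known. The text names all 10 members, the count of each list, and the 5 genes most like Fos, Junb, Egr1 and Atf3. From each pathway list, up to 6 genes called in the mean donor difference were picked by its size. Up to 3 uncalled genes were picked by smallest adjusted p. Not all genes so picked are named in the text, for example Klf2, Gadd45g and Socs3. Other names, such as Jund and Hbegf, were added after their values were seen. Alternatives changed the treatment of 0 and of dim values, the normalization, the probes, the filter, the samples fitted, the number series as a block and the mice included. Leaving out mice 5704 and 6224 was added after seeing the data.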

Additional observations from a re-analysis of the deposited data

Results flagged for a closer look

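Of 50 sets of 4 or more mice (1 gene in 1 group), 5 held a mouse far from the others of its group, by a gap test that picks out about 1 in 20 sets by chance. In allo Il13-deficient mice, Fos in mouse 6224 stood at 0.08 while the others lay between -2.61 and -2.28, a gap of 0.877 of the range. In allo Rag2-/- mice, Fosl1 in mouse 5704 stood at -1.74 and the others at -3.24 to -2.89 (gap 0.768). In syn Rag2-/- mice, Fosl1 in mouse 5702, the mean of 3 arrays, stood at -3.56 and the others at -3.003 to -2.89 (gap 0.829). Mouse 6154, allo Rag2-/-, was low for Jun (-0.85, others -0.44 to -0.35, gap 0.82) and for Zfp36 (0.29, others 0.65 to 0.77, gap 0.752). It was also the lowest allo Rag2-/- mouse for Nr4a1 (-0.34).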

How the results depend on the processing

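Each count of called members was repeated under 12 or 13 other settings and without each of the 24 mice. In Rag2-/- recipients 5 members were called, 3 with exact 0 kept as a value, and 3 to 7 without 1 mouse. In Il13-deficient recipients 2 were called, 0 with these groups alone in the fit, 1 without mice 6229 and 6234, and 2 without any 1 mouse. In Il4ra-deficient recipients 2 were called, and 1 with exact 0 kept, with quantile normalization, with all probes averaged or with 1 mouse a group sufficing. That count was 0 without the mice of irregular labels (4533, 5718, 6230 and 6232) and 0 to 4 without 1 mouse. The average over recipients had 5, and 4 to 7 without 1 mouse. The Il13 interaction had 0, 2 without mice 5704 and 6224 (where 32 of all genes were higher and 23 lower), and 0 to 2 without 1 mouse. In allo mice, Il13-deficient against Rag2-/- recipients had 0, 1 without mice 5704 and 6224 (where 20 of all genes were higher and 22 lower), and 0 to 1 without 1 mouse. Il4ra-deficient against Rag2-/- recipients had 1, and 0 with exact 0 kept, with all probes averaged, with number series as a block or without the mice of irregular labels, 2 with the compared groups alone, and 0 to 1 without 1 mouse. In syn mice, Il13-deficient against Rag2-/- recipients had 0, 1 without the mice of irregular labels, and 0 to 2 without 1 mouse. The Il4ra interaction and Il4ra-deficient against Rag2-/- recipients in syn mice had 0 throughout. The block could not be run for Il13-deficient against Rag2-/- recipients, since series 62 holds all Il13-deficient mice.

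The sign of a member changed only where it was not called. In Rag2-/- recipients Fosb came to -0.0256 under quantile normalization, and the mean over recipients of Fosb to 0.0005 with the first array of each mouse. In Il13-deficient recipients Jun came to 0.0733 without values shared by 30 or more probes (which also removes values near 0 that are common by density) and to 0.0367 without the mice of irregular labels. Zfp36 came to -0.2144 without mice 6229 and 6234, and without mice 5704 and 6224 Zfp36 came to -0.0486 and Nr4a1 to 0.0306. In Il4ra-deficient recipients Fos came to 0.0436 with all probes averaged, Ier3 to -0.1749 under quantile normalization and -0.0188 with the block, and Zfp36 to 0.1217 without values shared by 30 or more probes and 0.0387 without the mice of irregular labels. Uncalled differences that crossed 0 when 1 mouse was left out ranged, in Il13-deficient recipients, over -0.4277 to 0.0397 (Fosb), -0.1562 to 0.0371 (Jun), -0.4459 to 0.1501 (Nr4a1) and -0.0486 to 0.245 (Zfp36). In Il4ra-deficient recipients they ranged over -0.52 to 0.255 (Fos), -0.3885 to 0.0305 (Fosb), -0.116 to 0.0905 (Ier3) and -0.2625 to 0.0583 (Zfp36). The causes were not tested. Of the single members' values, 1153 without 1 mouse kept direction and side of the threshold. Under other settings 642 were counted as the same, and these include differences within a number series. Those have no adjusted p and were counted as the same when they moved by less than the SD of the allo group. Some uncalled ones had a turned sign, such as Fosl1 in Rag2-/- recipients, at -0.19 within series 61 against 0.29 in the main fit. Group sizes of 3 to 5 mice limit what could pass.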
